A study of Mus musculus with 12 samples.

Results

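At day 5 of osteoclast differentiation, the libraries numbered 2 of the vehicle and the supernatant arm held several transcripts of bone-resorbing osteoclasts, among them Ctsk, Acp5 and Mmp9, far above the level of the libraries numbered 1, while many other genes tied to osteoclast formation were lower or did not differ beyond the spread. These 4 libraries, of 12 in the series, were chosen by their labels alone (day 5, either arm, replicate 1 or 2), and they are described here against the 4 libraries of day 3. RAW264.7, an immortalized Balb/c mouse line of monocyte and macrophage character, was stimulated with RANKL, labelled at 100 ug/ml, in all groups. The vehicle arm received MEM-alpha medium, and the treatment arm received medium in which the gut bacterium L. reuteri had grown. RNA was taken at day 1, 3 or 5 and sequenced from total RNA, with 2 libraries per arm and day. The labels do not say whether the 2 libraries came from separate cultures, nor do they give a batch of culture, extraction or library preparation. Each p-value therefore reflects only how far the arms disagreed about the replicate difference, a spread that may be technical.

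RANKL is the cytokine that turns cells of the macrophage line into osteoclasts, the cells that dissolve bone. It acts through its receptor RANK to raise NFATc1, the transcription factor that, with AP-1, PU.1 and MITF, switches on the genes of the mature cell. Maturing cells fuse into large multinucleate cells, seal off a patch of bone, pump acid onto it through a vacuolar proton pump and digest its collagen with secreted proteases such as cathepsin K.

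The promoters of 3 genes that differed strongly between the day 5 libraries are shown for orientation, among those with an entry in the promoter table, since NFAT, AP-1, PU.1 and MITF family factors are known to act at osteoclast genes. Each is the 250 bases before a transcription start in RefSeq, build GRCm38.p6, read 5′ to 3′ on the gene's own strand, with motif matches in capitals: chr3:95498960-95499209, plus strand, for Ctsk, chr9:22130599-22130848, minus strand, for 1 of the 3 starts of Acp5, and chr3:135307450-135307699, plus strand, for Slc9b2.
Ctsk: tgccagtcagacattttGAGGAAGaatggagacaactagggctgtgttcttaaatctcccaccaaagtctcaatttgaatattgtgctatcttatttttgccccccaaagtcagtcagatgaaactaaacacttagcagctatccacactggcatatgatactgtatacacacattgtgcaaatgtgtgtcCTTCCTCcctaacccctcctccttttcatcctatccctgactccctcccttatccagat
Acp5: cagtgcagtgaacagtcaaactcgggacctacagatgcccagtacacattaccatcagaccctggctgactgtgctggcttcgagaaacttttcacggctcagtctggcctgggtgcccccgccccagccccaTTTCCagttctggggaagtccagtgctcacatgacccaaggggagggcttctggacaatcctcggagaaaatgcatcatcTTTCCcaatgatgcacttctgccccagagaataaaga
Slc9b2: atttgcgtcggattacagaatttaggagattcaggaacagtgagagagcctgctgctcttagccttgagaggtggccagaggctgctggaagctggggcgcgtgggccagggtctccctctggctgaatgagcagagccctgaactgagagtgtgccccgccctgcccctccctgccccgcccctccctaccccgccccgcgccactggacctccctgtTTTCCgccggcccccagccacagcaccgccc
The letters searched, on both strands, were GGAAA for NFAT, TGANTCA for AP-1, GAGGAAG for PU.1 and CACGTG for the M-box of MITF. The capitals mark 2 PU.1 matches in the Ctsk promoter, 2 NFAT matches in that of Acp5 and 1 NFAT match in that of Slc9b2. The other Acp5 starts held 1 NFAT match each. Such short letters are common, since 55.6% of 32851 promoters in the table held the NFAT letters, 10.6% the PU.1, 6.75% the AP-1 and 6.02% the M-box letters. A match is a description of the sequence and shows no binding.

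The composition of the libraries differed between the replicate numbers at days 3 and 5. Nuclear protein-coding genes held 87.6% of reads in both replicate 1 libraries of day 5, against 41.0% (vehicle) and 48.8% (treatment) in replicate 2. Mitochondrial genes held 4.02% and 3.64% in replicate 1 and 30.6% and 25.8% in replicate 2, and Malat1, an RNA retained in the nucleus, 0.290% and 0.336% against 9.84% and 8.15%. The day 3 libraries split in the same way, with 85.8% and 85.2% of reads on nuclear protein-coding genes in replicate 1 and 38.1% and 47.1% in replicate 2. The day 1 libraries did not, with 85.3% to 85.9% in all 4. Depth at day 5 was 13812078 and 13851331 recovered reads in replicate 1 and 8995397 and 10724569 in replicate 2. Replicate number and RNA composition cannot be told apart at either day. Each difference of day 5 is therefore set against the same difference of day 3, when the composition split was of like size.

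**Figure D1:**
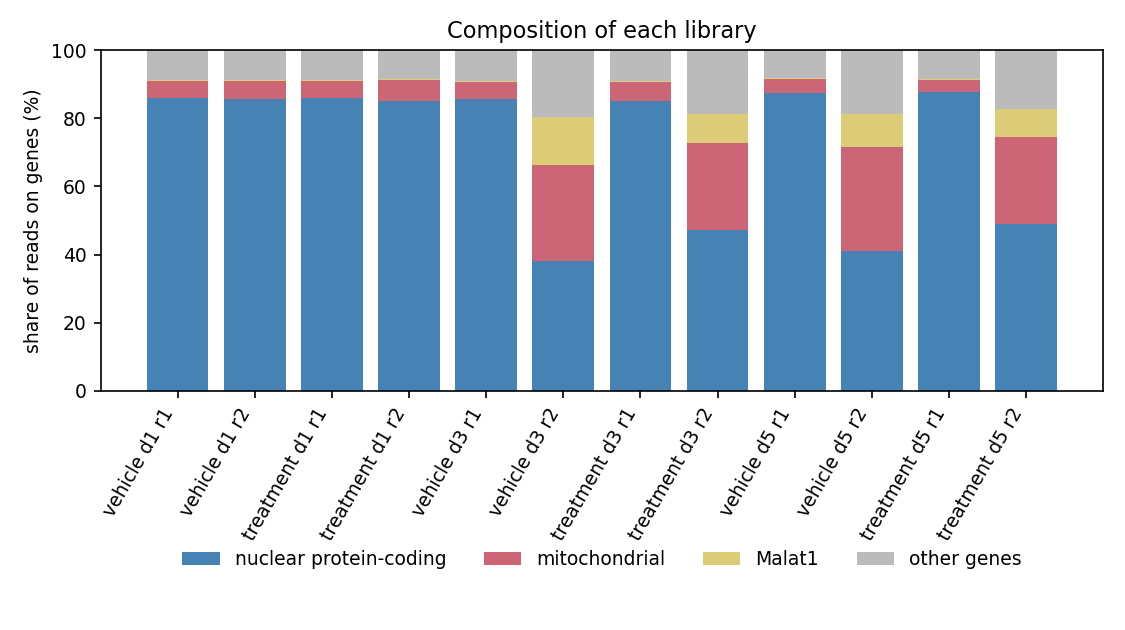
Share of reads on genes (vertical axis, percent) in each of the 12 libraries (bars; d, day; r, replicate), divided into nuclear protein-coding, mitochondrial, Malat1 and other genes. Replicate 2 at days 3 and 5 stands apart in both arms, with 38.1% to 48.8% of reads on nuclear protein-coding genes.

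The replicate difference below is replicate 2 minus replicate 1 within an arm, averaged over the arms, in log2(normalized count + 8). Since the libraries are scaled to 1 common total, a larger share for mitochondrial RNA and Malat1 leaves a smaller one for other genes. The median replicate difference over 13735 genes was -1.04 at day 5 (-1.19 in vehicle, -0.87 in treatment) and -1.34 at day 3. In a limma model of the 8 libraries, 10047 genes (73.1%) passed a Benjamini-Hochberg adjusted p of 0.05 at day 5, 1530 higher (11.1%) and 8517 lower (62.0%) in replicate 2. At day 3 it was 10968 (79.9%), 1406 higher (10.2%) and 9562 lower (69.6%). These splits follow the scaling: with each library scaled to its nuclear protein-coding reads they became 3872 higher and 4984 lower at day 5, and 3191 and 6295 at day 3, and centring each library on its median gave 4477 and 4503, and 4626 and 4576. Without either vehicle library of day 5 the day 5 count fell to 6474 or 6473. Replicate numbers at day 1, in a fit of all 12 libraries, differed in 0 genes by limma, with 54 at an unadjusted p under 0.05.

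Most of the replicate difference was shared by the days. Across genes, which are not independent replicates, the mean differences of day 5 and day 3 had a Pearson r of 0.87, and those of the 2 arms at day 5 an r of 0.93. The genes furthest apart at day 5 were apart at day 3 as well. Gm37376, an unannotated transcript, stood at 6145 and 7231 normalized counts in replicate 1 (vehicle, then treatment) and at 471907 and 391982 in replicate 2, a difference of 6.01, against 5.78 at day 3. Gm38071, 9430053O09Rik, 5330406M23Rik, A130071D04Rik, C130089K02Rik, Gm36963 and the mitochondrial proline tRNA gene mt-Tp were 5.30 to 5.99 log2 units higher in replicate 2 at day 5 and 4.78 to 5.77 at day 3. Of the 8 genes furthest lower, Anln, which encodes the cytokinesis protein anillin, held 2746 and 1838 normalized counts in replicate 1 and 57.9 and 59.25 in replicate 2, and Lnpep, a membrane aminopeptidase gene, 2489 and 2688 against 49.5 and 98.4. The other 6 (4731419I09Rik, Gm15629, 2900097C17Rik, Alg10b, Gm20531 and Gm21985) differed by -4.69 to -5.37 log2 units at day 5 and by -3.62 to -5.31 at day 3.

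The difference of these differences is called the day 5 excess here: the replicate difference of day 5 minus that of day 3. It passed in 628 of 13735 genes (4.57%) by limma, with 386 higher (2.81%) and 242 lower (1.76%), and its median over all genes was 0.29. The split between higher and lower also moves with the scaling, to 1414 and 540 on nuclear protein-coding reads, 559 and 1133 after median centring and 689 and 700 after quantile normalization. Of the 386, 339 were called after centring and 377 on nuclear protein-coding reads, and of the 242, 240 and 224. At day 5 itself 92 of the 386 were higher in replicate 2 and 137 lower, beside 11.1% and 62.0% of all genes. At day 3, 327 of the 386 were lower in replicate 2, beside 69.6% of all genes. Leaving out 1 library leaves its arm without a replicate difference at that day, and the count became 231 or 211 without a vehicle library of day 3, 2209 or 2197 without a treatment library of day 3, 203 or 200 without a vehicle library of day 5, and 145 or 141 without a treatment library of day 5. The 13735 tests share 2 residual degrees of freedom per gene and a prior of 54.5 estimated over all genes, so that each p rests mostly on the spread shared by genes of like level.

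The largest excesses belonged to genes of the bone-resorbing cell. Ctsk, which encodes the collagen-degrading protease cathepsin K, stood at 299 (vehicle) and 281 (treatment) normalized counts in replicate 1 of day 5, and at 6680.1 and 7164 in replicate 2. At day 3 it had stood at 2085 and 1866 in replicate 1 and at 581 and 1414 in replicate 2. Replicate 2 was thus above replicate 1 at day 5 in both arms and below it at day 3 in both arms, and the excess was 5.65 log2 units (SE 0.39, limma adjusted p = 1.19e-16).

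Acp5, the gene of the tartrate-resistant phosphatase used to stain osteoclasts, showed the same split. Its normalized counts at day 5 were 35.9 and 21.1 in replicate 1 and 1231 and 771 in replicate 2, while the 4 libraries of day 3 lay between 675 and 1068. The excess was 5.04 (SE 0.41, limma adjusted p = 7.8e-14). The day 1 libraries held 12.1 to 25.8 counts of Acp5, so the replicate 1 libraries of day 5 were near the level of day 1.

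Ocstamp, a membrane protein gene needed for the fusion of precursors, stood at 54.3 and 3.67 normalized counts in replicate 1 and at 329 and 212 in replicate 2 of day 5, and at 842, 550.1, 187 and 282 at day 3 in the same order. Atp6v0d2, a subunit of the proton pump with a part in fusion, stood at 809 and 600.1 in replicate 1 and at 2569 and 2504 in replicate 2 at day 5, after 4612 and 3129 against 849.6 and 1085 at day 3. In both genes the order of the replicates turned over between the days. The excess was 4.87 for Ocstamp and 3.83 for Atp6v0d2 (limma adjusted p = 9.02e-11 and 6.96e-11).

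Slc9b2, a sodium and proton exchanger of osteoclasts, held 10.1 and 4.6 normalized counts in replicate 1 and 172 and 198 in replicate 2 at day 5, against 80.8 to 172 in the libraries of day 3. Mmp9, the gelatinase that osteoclasts secrete, held 663 and 798 in replicate 1 and 2814 and 4764 in replicate 2, against 369 to 1143 at day 3. Slc9b2 was low only in replicate 1 of day 5, and Mmp9 high only in its replicate 2, among the libraries of these 2 days. Their excesses were 3.91 and 3.16 (limma adjusted p = 6.84e-08 and 1.63e-07).

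**Figure D2:**
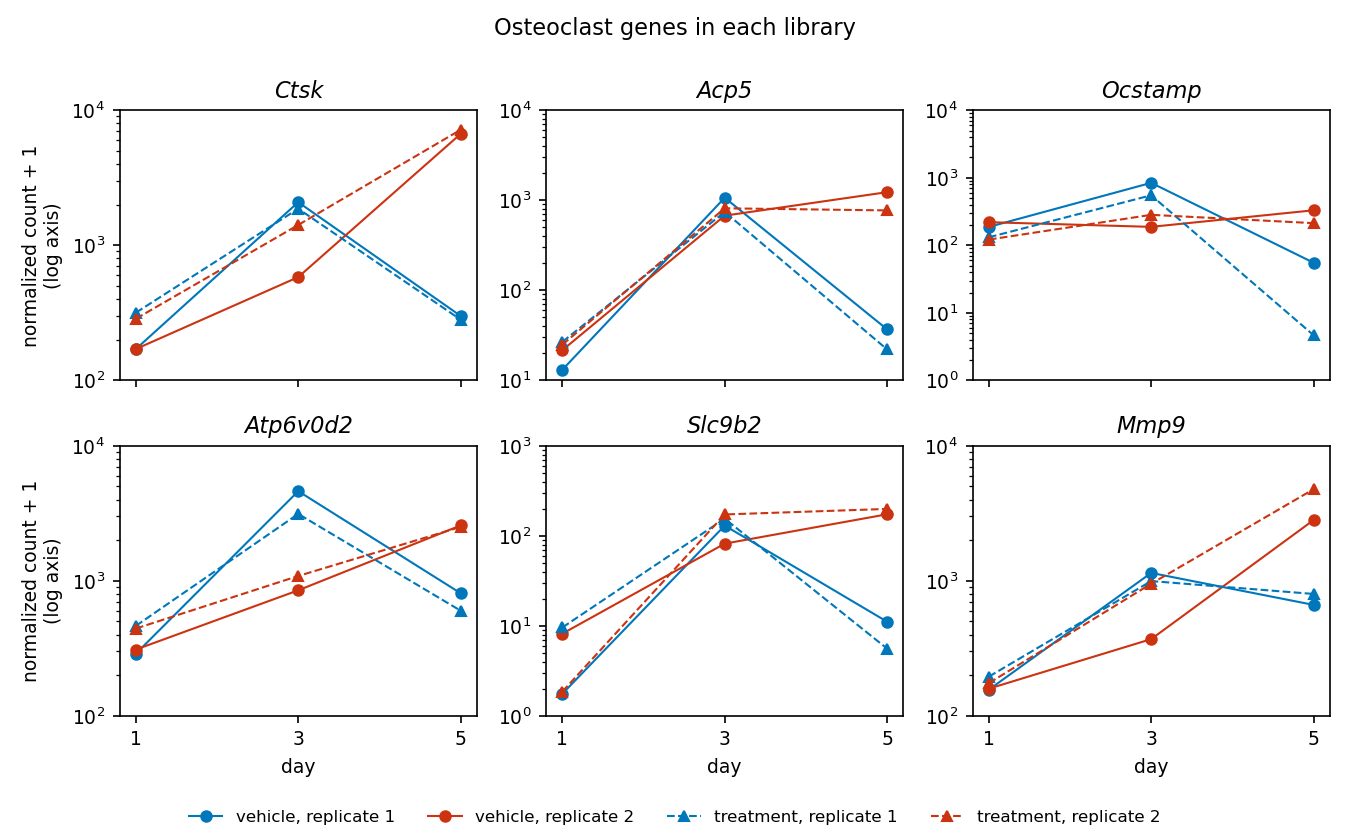
Normalized count plus 1 (vertical axis, log scale) of 6 osteoclast genes by day (horizontal axis) in each library. Blue is replicate 1 and red replicate 2, circles with solid lines vehicle and triangles with dashed lines treatment, and lines join libraries of 1 arm and number as a guide. The red points lie above the blue ones at day 5 in all 6 panels.

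The fall in replicate 1 and the rise in replicate 2 took unequal parts. Within replicate 1, whose libraries at both days were rich in nuclear protein-coding reads, 5 of these 6 genes fell from day 3 to day 5: the log2 change was -4.65 for Acp5, -4.67 for Ocstamp, -3.30 for Slc9b2, -2.73 for Ctsk and -2.43 for Atp6v0d2, while that of Mmp9, -0.55, did not pass. Within replicate 2 Ctsk rose by 2.92, Mmp9 by 2.61 and Atp6v0d2 by 1.39, whereas Acp5 (0.39), Ocstamp (0.20) and Slc9b2 (0.61) did not pass. Over all genes the change from day 3 to day 5 passed in 1436 in replicate 1 (10.5%), 899 higher (6.55%) and 537 lower (3.91%), and in 2876 in replicate 2 (20.9%), 2032 higher (14.8%) and 844 lower (6.14%). With nuclear protein-coding scaling the replicate 1 split was 1080 and 1235, and with median centring the replicate 2 split was 1682 and 2425. The replicate 1 count was 318 without vehicle replicate 1 of day 5 and 543 without treatment replicate 1 of day 5. The replicate 2 count was 68 without treatment replicate 2 of day 5, 380 without vehicle replicate 2 of day 3, 828 without vehicle replicate 2 of day 5, and 1738 or 1741 without vehicle or treatment replicate 1 of day 5. Of the 386 genes with a higher day 5 excess, 137 fell in replicate 1, 241 rose in replicate 2, 28 did both and 36 did neither. Those changes are part of the excess that chose these genes.

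Bone resorption effectors as a list moved mainly upward in the excess. Of 22 listed genes 20 were tested, and 10 had a higher day 5 excess and 0 a lower one, against 2.81% and 1.76% of all genes. Their median excess was 1.18 beside 0.29 over all genes, and stayed between 0.87 and 1.15 under the other scalings. Beside the genes above, Car2 (carbonic anhydrase, which supplies the protons), Slc37a2, Slc4a2 (the chloride and bicarbonate exchanger), Tcirg1 (the pump subunit of the ruffled border) and Ckb (a creatine kinase) passed, with excesses of 2.06, 1.78, 1.67, 1.33 and 1.27. At day 5 alone 8 of the 20 were higher in replicate 2 and 5 lower, with a median difference of 0.32 against -1.04 over all genes. Both replicate 2 libraries lay above both replicate 1 libraries in 9 of the 20 (16.4% of all genes) and below them in 6 (71.9% of all genes). The count of 10 became 4 without the replicate block, 7 without either vehicle library of day 3 or either treatment library of day 5, and 5 without either vehicle library of day 5.

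Several resorption genes did not follow. Clcn7 and Ostm1, whose products act together in chloride transport at the ruffled border, had excesses of 0.25 and 0.27 and did not pass. Neither did Snx10 (0.29) or Cst3, the secreted cathepsin inhibitor (0.20). Itgb3, the integrin subunit of mature osteoclasts, held 5.5 and 24.8 normalized counts in replicate 1 and 76.3 and 17.8 in replicate 2, so that the groups overlapped, and its excess of 0.61 did not pass. Calcr, the calcitonin receptor gene and a late marker, was below the level tested, with 0 counts in both replicate 1 libraries of day 5 and 15.5 and 2.4 in replicate 2. Oscar, a costimulatory receptor gene also below that level, held 0.9 and 0.9 in replicate 1 and 28.3 and 27.3 in replicate 2, with 0.8 to 6.3 at day 3.

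Among the 18 V-ATPase subunits, some shared with the resorption list, 5 had a higher excess and 0 a lower one, with a median of 1.05. Of all genes, 2.81% had a higher excess and 1.76% a lower one. Atp6v1b2, Atp6v0c and Atp6v0e, subunits found in many cell types, had excesses of 1.67, 1.63 and 1.46. Their counts in replicate 2 of day 5 were close to those of replicate 1 (4927 and 6077 against 5411 and 4515 for Atp6v0c), while at day 3 replicate 2 had held 2025 and 3042 against 7579 and 6376. The excess of these subunits thus came with no called difference at day 5 itself. Without any 1 library of day 5, or vehicle replicate 2 of day 3, fewer subunits were called. Without either treatment library of day 3 more were, but far more of all genes were called higher there too.

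Fusion genes divided. Of 17 tested, 5 had a higher excess (Ocstamp, Dcstamp, Tspan5, Sirpa and Cd9) and 0 a lower one, beside 2.81% and 1.76% of all genes. The median of the list was -0.02. Dcstamp, the partner of Ocstamp in fusion, held 836 and 799 normalized counts in replicate 1 and 1516 and 1689 in replicate 2 at day 5, against 1462 and 1118, and 462 and 765, at day 3. Its excess was 2.06 (SE 0.39, limma adjusted p = 0.000356), and did not pass without either treatment library of day 5. Adam8, Cd44 and Tspan13 were 2.32, 1.80 and 2.97 log2 units lower in replicate 2 at day 5, with excesses of -0.39, -0.02 and -0.83 that did not pass. Without 1 library of day 5, or of vehicle day 3, the count for the list was 1 or 2, and without the replicate block it was 0.

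Of the transcription factors of osteoclast formation, 3 of 23 had a higher excess and 0 a lower one (median 0.43). The shares of all genes were 2.81% and 1.76%. Nfatc1 stood at 799.6 and 648 normalized counts in replicate 1 and at 831 and 505 in replicate 2 of day 5. At day 3 replicate 1 had held 6224 and 5354, and replicate 2 930.4 and 1198. The replicates of day 5 overlapped, and the excess was 2.29 (SE 0.37, limma adjusted p = 3.21e-05). From day 3 to day 5 the log2 change was -2.99 in replicate 1 and -0.70 in replicate 2, and both passed. Its day 5 difference of -0.15 did not pass, but was 0.81 to 1.02 and passed on nuclear protein-coding reads, after quantile normalization or median centring, and with the length and GC trend removed. Fosl2, an AP-1 subunit, followed the same course, with 1040 and 1196 counts in replicate 1 and 1029 and 882 in replicate 2 at day 5 and an excess of 2.25. Prdm1, which encodes Blimp1, a repressor of the genes that hold osteoclast formation back, held 3.7 and 2.8 counts in replicate 1 and 62.2 and 58.1 in replicate 2 at day 5, within the 54.4 to 84.4 of all day 3 libraries. Its excess was 2.74 (limma adjusted p = 0.000132). Jdp2, another AP-1 factor, had an excess of 1.17 that did not pass (limma adjusted p = 0.06), and Mitf and Spi1 had 0.49 and 0.50.

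Genes known as repressors of osteoclast formation include targets of Blimp1. Irf8 stood at 847 and 1185 normalized counts in replicate 1 and at 454 and 609 in replicate 2 of day 5, and Bcl6 at 1041 and 1130 against 331 and 634. Their excesses were -0.64 and -0.48, and neither passed. A higher excess passed in 2.81% of all genes and a lower one in 1.76%. Of 11 tested repressors 1 had a higher excess, Lgals3 (galectin 3, 1.56, 0 calls for the list without 1 library of day 5 or of vehicle day 3), and 0 a lower one. Lower excesses were called in 5 of the 11 after median centring, 4 with the length and GC trend removed, 3 after quantile normalization and 2 on nuclear protein-coding reads. Over all genes the same settings, in this order, called 1133, 718, 700 and 540 lower, against 242 in the main fit. In the RANK and costimulatory signalling list 0 of 23 genes passed in either direction, with a median of 0.51. Tnfrsf11a, the gene of RANK itself, had an excess of 0.54, and Tyrobp and Blnk 1.10 and 1.22. Without either treatment library of day 3 some of that list passed, all higher, but far more of all genes were called higher there too.

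In the podosome and sealing zone list, 3 of 27 genes had a higher excess and 0 a lower one (2.81% and 1.76% of all genes), with a median of 0.52. At day 5 itself 22 of the 27 were lower in replicate 2 and 1 higher, beside 62.0% and 11.1% of all genes. Of 26 lysosomal genes 19 were lower there and 1 higher. Src, the kinase required for the ruffled border, held 236 and 217 normalized counts in replicate 1 and 366 and 417 in replicate 2 at day 5, against 770 and 703, and 147 and 269, at day 3. Its excess was 2.61 (SE 0.42, limma adjusted p = 2.72e-05). Rac2, a small GTPase, and Dock5, an exchange factor for Rac, had excesses of 1.75 and 1.76, and neither passed without a treatment library of day 5, when the list count was 1. Without a treatment library of day 3 it rose, as did the calls of higher excesses over all genes. Lysosomal genes had 4 of 26 higher (among them Cd63, Psap and Cd68, by 1.50, 1.40 and 1.19) and 0 lower. These calls were lost without any 1 library of day 5 or of vehicle day 3. Without a treatment library of day 3 more lysosomal genes passed, as did more of all genes.

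Other genes outside the lists belonged to the 12 largest excesses. Matk, a kinase that inhibits Src family members, held 6.4 and 8.3 normalized counts in replicate 1 and 419.6 and 233 in replicate 2 at day 5, and was higher in replicate 2 at day 3 too (157 and 211 against 102 and 46.2). Coq8a, a mitochondrial protein of coenzyme Q synthesis, held 65.3 and 24.8 against 403 and 257, with an excess of 3.66. Clec4a2, a C-type lectin gene, held 463 and 303 against 756 and 849 (2.86), and Ccr3, a chemokine receptor gene, 14.7 and 1.8 against 35.3 and 34.4 (2.99). Fam49a held 28.5 and 7.3 against 55.1 and 35.5 (3.18). Pls1, the actin-bundling protein plastin 1, had an excess of 3.42 with no called difference at day 5 (5.5 and 0 against 14.1 and 1.2), since at day 3 it had stood at 142 and 63.4 in replicate 1 and at 10.3 and 1.6 in replicate 2.

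Of the 242 genes with a lower day 5 excess, 165 were lower in replicate 2 at day 5 and 48 higher, beside 62.0% and 11.1% of all genes. From day 3 to day 5, 158 of the 242 rose in replicate 1, beside 6.55% of all genes. That change is part of the excess that chose these genes. Cd93, a myeloid surface glycoprotein gene, stood at 873 and 2155 normalized counts in replicate 1 and at 49.5 and 139 in replicate 2, while the libraries of day 3 held 17.6 to 101 and those of day 1 229 to 691. Its excess was -2.75 (SE 0.46, limma adjusted p = 4.64e-05). Aqp9, the aquaglyceroporin gene of myeloid cells, held 157 and 262 in replicate 1 and 5.7 and 10.7 in replicate 2, and at most 4.7 at day 3, with 69.7 to 129 at day 1. Trem3, a receptor gene of the TREM family, held 56.1 and 131 in replicate 1, 0 and 1.2 in replicate 2 and at most 1.6 at day 3, with 48.5 to 86.4 at day 1. In each of these genes both replicate 1 libraries of day 5 stood above the day 1 libraries of their arm, and both replicate 2 libraries far below them. The excesses of Aqp9 and Trem3 were -3.39 and -3.59 (limma adjusted p = 2.02e-06 and 7.15e-07).

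Cmah, the hydroxylase gene of sialic acid, had the largest lower excess, -4.10 (SE 0.48, limma adjusted p = 2.71e-08), with 414 and 252 normalized counts in replicate 1 and 63.6 and 21.3 in replicate 2 at day 5, and 3.9 to 41.2 in all day 1 and day 3 libraries. Ccnd2, the gene of cyclin D2, held 250.3 and 606 against 8.5 and 45.0, Atp9a, a phospholipid flippase gene, 107 and 145 against 0 and 5.9, and Sema6d, a semaphorin gene, 94.8 and 229 against 4.2 and 3.6, with excesses of -3.14, -3.44 and -2.89. Dst, a cytoskeletal linker gene, held 940.4 and 1216 against 168 and 341 (-2.66), and 9130208D14Rik 336 and 714 against 11.3 and 27.3 (-2.86). Gm10800, Gm10722 and 1700006J14Rik differed from these: they were higher in replicate 2 at day 3 by 4.81, 4.29 and 2.58 log2 units and their excesses, -3.16, -3.04 and -3.08, came with day 5 differences of 1.65, 1.25 and -0.50. Gm10800 and Gm10722 resemble other predicted genes in sequence, so their counts are uncertain.

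**Figure D3:**
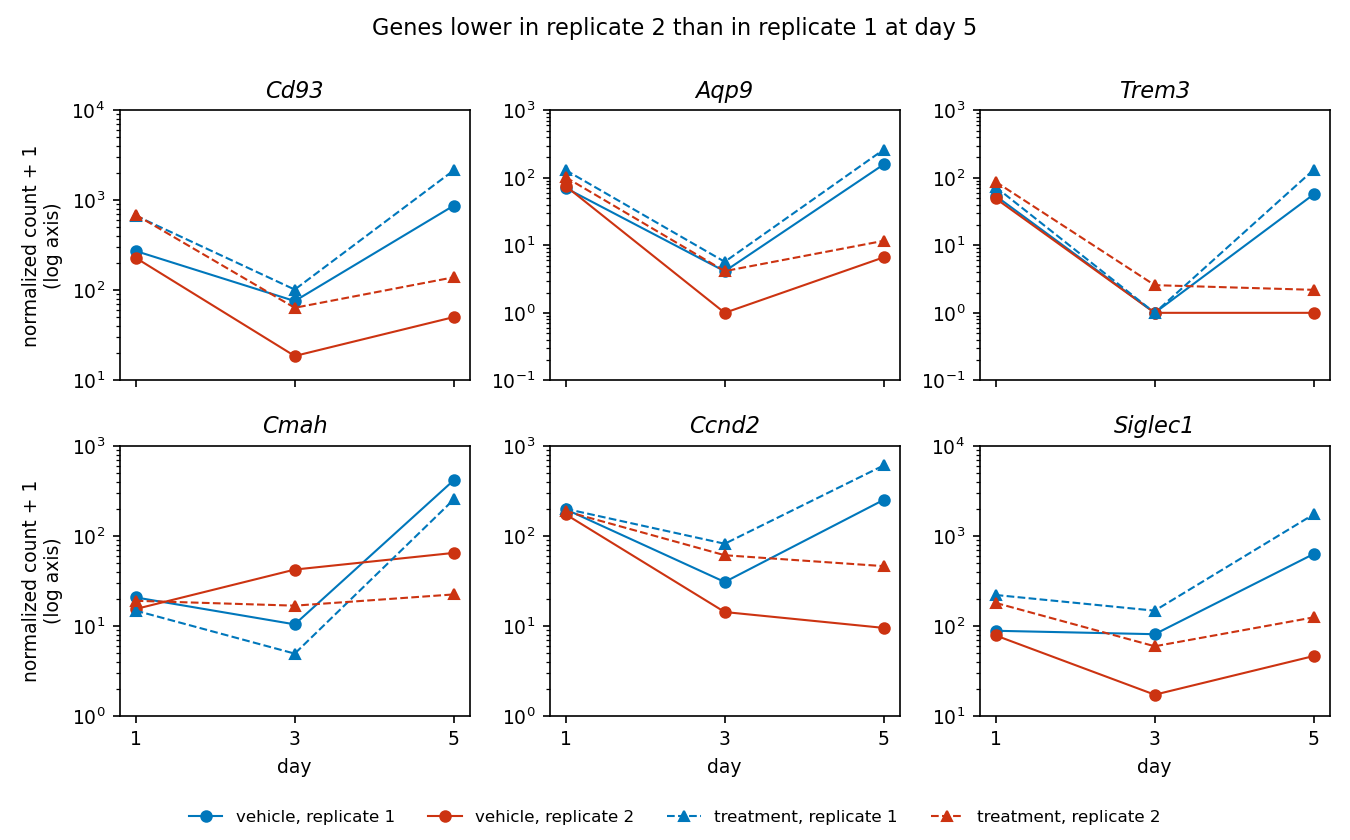
Normalized count plus 1 (vertical axis, log scale) by day (horizontal axis) of 6 genes lower in replicate 2 than in replicate 1 at day 5. Colours, markers and lines are as in the plot of the osteoclast genes. At day 5 both blue points lie above both red ones in each panel.

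Genes of macrophage identity rose from day 3 to day 5 in both replicates. Within replicate 1, 15 of 21 tested rose and 0 fell (6.55% and 3.91% of all genes), with a median of 1.46 beside -0.10 over all genes. Within replicate 2, 14 rose and 0 fell (14.8% and 6.14% of all genes), with a median of 1.05 beside 0.23. The excess was lower in 4 of 21 (Siglec1, Cd86, Fcgr1 and Cx3cr1, by -2.12, -2.20, -2.08 and -1.62). It was higher in 1, the scavenger receptor gene Cd36 (1.24). Of all genes, 1.76% had a lower excess and 2.81% a higher one. Siglec1, the sialoadhesin gene of resident macrophages, held 628 and 1735 normalized counts in replicate 1 and 45.2 and 123 in replicate 2 at day 5. Lyz2, the lysozyme gene, held 284656 and 273448 against 65879 and 122798, and Csf1r, the receptor for the growth factor M-CSF, 14087 and 14780 against 4630 and 6338, with excesses of -0.29 and 0.49 that did not pass. Summed over the list, the level at day 5 was 450796 and 446979 in replicate 1 and 102491 and 200565 in replicate 2. The sum was lower in replicate 2 at day 3 as well, with 34642 and 80853 against 116157 and 156568 in replicate 1. These sums also move with the share of reads on nuclear protein-coding genes, which was smaller in replicate 2 at both days. In bulk RNA, fewer cells of a type and less of its RNA per cell cannot be told apart. Without 1 library of day 5, or vehicle replicate 2 of day 3, the count of lower excesses was 2.

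Interferon response genes were low in replicate 2 at day 5. Of 29 tested interferon response genes 29 were lower in replicate 2 at day 5, with a median of -2.74 beside -1.04 over all genes, and 26 at day 3, with -1.52 beside -1.34, where 62.0% and 69.6% of all genes were lower. The excess was lower in 6 (Ifit1, Ifit3, Mx2, Xaf1, Isg15 and Ifi47) and higher in 0, beside 1.76% and 2.81% of all genes. Its median over the list was -1.003. Ifit1, an antiviral protein that binds RNA, held 70.8 and 171 normalized counts in replicate 1 and 5.7 and 0 in replicate 2 at day 5, and its excess was -2.54 (limma adjusted p = 0.00132). The count of 6 became 0 without either treatment library of day 5, 1 without either vehicle library of day 3, and 11 without either treatment library of day 3. It was 0 without the replicate block or with a pseudocount of 1, 3 with limma voom, and 13 after median centring or with a pseudocount of 32. Over all genes the lower calls were 21 without the block, 111 with a pseudocount of 1 and 190 with voom. They were 1133 after median centring and 470 with a pseudocount of 32. In the inflammatory list 13 of 17 genes rose and 0 fell from day 3 to day 5 in replicate 1, and 8 and 0 in replicate 2. Of all genes, 6.55% rose and 3.91% fell in replicate 1, and 14.8% rose and 6.14% fell in replicate 2. Only Slpi, a secreted protease inhibitor, passed for the excess (-2.30), with 136 and 406 counts in replicate 1 and 2.8 and 127 in replicate 2, and it did not pass without a vehicle library of day 3 or day 5. The list count was 4 without a vehicle library of day 3, 3 without a treatment library of day 5 and 2 without a treatment library of day 3. Cxcl2, Cxcl10 and Ptges had excesses of -1.44, -1.47 and -1.49 that did not pass, and Il6, Il1a, Il1b, Il10, Nos2 and Ccl7 were below the level tested.

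Cell cycle genes were low in replicate 2 at day 5. All 28 genes of mitosis and G2/M were lower there, with a median of -2.87 beside -1.04 over all genes, and 25 of 28 at day 3, with -2.38 beside -1.34. Of all genes, 62.0% were lower at day 5 and 69.6% at day 3. Top2a, the topoisomerase of dividing cells, held 6605 and 5070.5 normalized counts in replicate 1 and 1327 and 638 in replicate 2 at day 5, against 6914 and 8130.2, and 4264 and 4127, at day 3, and its excess was -1.81 (SE 0.36, limma adjusted p = 0.00074). The proliferation marker Mki67 held 6017 and 4702 against 1002 and 475, with an excess of -1.27. From day 3 to day 5, 20 of the 28 fell in replicate 2 (6.14% of all genes) and 6 in replicate 1 (3.91% of all genes). In either replicate 0 rose, beside 14.8% of all genes in replicate 2 and 6.55% in replicate 1. A lower excess passed in 1.76% of all genes. The excess was lower in 6 (Top2a, Prc1, Cdca8, Mki67, Cenpe and Cenpf) and higher in 0, a count of 1 without either vehicle library of day 5, 0 without either treatment library of day 5 and 3 or 2 without a vehicle library of day 3. Of 28 genes of DNA replication and G1/S, Ccnd1 and Lig1 had lower excesses, -2.09 and -1.56, and the list count was 0 without a vehicle library of day 5. Ccnd1, the gene of cyclin D1, held 14826 and 14104 counts in replicate 1 and 4178 and 5024 in replicate 2 of day 5, and 4463 to 7286 at day 3.

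**Figure D4:**
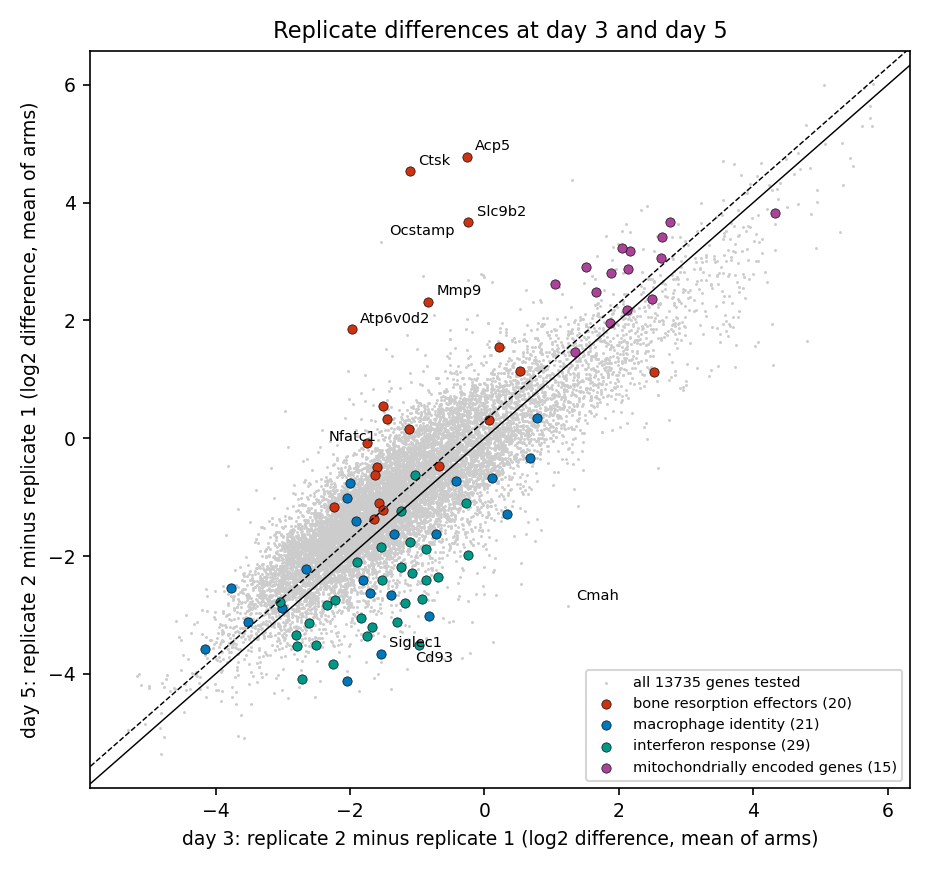
Replicate difference at day 3 (horizontal axis) against day 5 (vertical axis), in log2 units averaged over arms, for 13735 genes (grey) with 4 gene lists in colour. The solid line marks equal differences and the dashed line the median excess of 0.29. The resorption genes Ctsk, Acp5, Slc9b2, Mmp9 and Atp6v0d2 lie above both lines, and most interferon genes below them.

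Of 28 nuclear-encoded subunits of oxidative phosphorylation 14 had a higher excess and 0 a lower one, beside 2.81% and 1.76% of all genes. Their median excess was 1.13, and all 28 lay above the middle of all genes. At day 5 itself 12 of the 28 were lower in replicate 2 and 1 higher, beside 62.0% and 11.1% of all genes. At day 3, 25 were lower and 0 higher, beside 69.6% and 10.2% of all genes. Ndufa4 held 823 and 591 normalized counts in replicate 1 and 859 and 852 in replicate 2 at day 5, against 1600.2 and 1426, and 576 and 735, at day 3 (excess 1.50). Sdha and Sdhc, of succinate dehydrogenase, and Atp5c1, of the ATP synthase, had excesses of 1.43, 1.50 and 1.37. These calls were lost without any 1 library of day 5 or of vehicle day 3. Without a treatment library of day 3 more of the 28 passed, as did more of all genes. The 15 mitochondrially encoded genes were all higher in replicate 2 at both days, with medians of 2.88 and 2.12, and 3 had a higher excess (mt-Nd4l, mt-Nd5 and mt-Nd4, by 1.58, 1.40 and 1.19), 0 without any 1 library of day 5 and 9 or 8 without a vehicle library of day 3. The gene mt-Co1 held 91848 and 85144 counts in replicate 1 and 666435 and 634073 in replicate 2 of day 5. Its excess of 0.75 did not pass. Of all genes, 11.1% were higher in replicate 2 at day 5 and 10.2% at day 3. Glycolytic and hypoxia-induced genes had 1 of 24 higher and 0 lower for the excess (2.81% and 1.76% of all genes), with a median of 0.60. At day 5 itself all 24 were lower in replicate 2, and so were 11 of 13 iron genes, beside 62.0% of all genes. Iron genes had 4 of 13 higher (Hmox1, Steap3, Ncoa4 and Ftl1, by 1.74, 1.75, 1.49 and 1.22) and Slc39a14 lower (-1.51), and 0 without any 1 library of day 5 or of vehicle day 3.

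**Figure D5:**
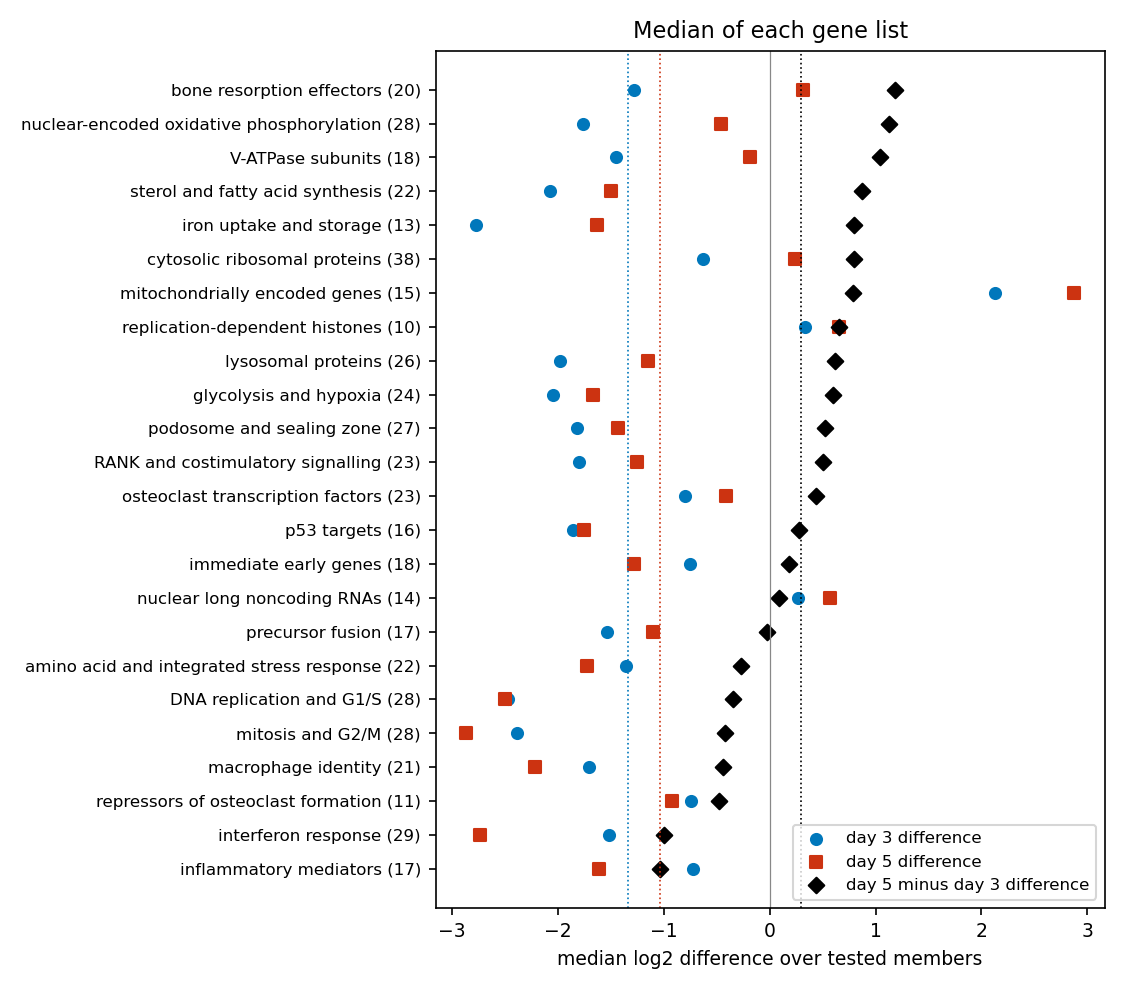
Median log2 difference (horizontal axis) over the tested members of each gene list (vertical axis, number tested in brackets), for the replicate difference of day 3 (circles), that of day 5 (squares) and the excess (diamonds), with dotted lines at the medians over all genes. Median excesses run from -1.03 (inflammatory mediators) to 1.18 (bone resorption effectors), an order that differs under other scalings. After quantile normalization mitochondrially encoded genes (1.07) and oxidative phosphorylation (1.07) lie above resorption (0.92), and interferon response (-1.12) below inflammatory mediators (-1.02). On nuclear protein-coding reads interferon response (-0.96) also lies below inflammatory mediators (-0.87).

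The counts for the lists moved with the model and the scale. So did those over all 13735 genes. They were 19 higher and 21 lower without the replicate block, and 184 and 111 with a pseudocount of 1. Median centring gave 559 and 1133, and nuclear protein-coding reads 1414 and 540. Without the replicate block the excess was called in 3 of the osteoclast transcription factors, 1 podosome gene and 1 V-ATPase subunit, and in 0 genes of the lysosomal, macrophage, inflammatory, mitosis and oxidative phosphorylation lists. With a pseudocount of 1, 5 oxidative phosphorylation genes, 2 lysosomal genes and 3 fusion genes were called higher, and 2 mitosis genes and 2 macrophage genes lower. Median centring called lower excesses in 12 of 28 mitosis genes, 9 of 28 of DNA replication, 8 of 21 of macrophage identity and 7 of 17 inflammatory genes. It also called 3 of 23 osteoclast transcription factors, 3 of 27 podosome genes and 2 of 17 fusion genes lower. On nuclear protein-coding reads 24 oxidative phosphorylation genes, 12 V-ATPase subunits and 9 lysosomal genes were called higher.

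The levels of replicate 1 at day 5 could be set against day 1, where no composition split existed. Within replicate 1, 297 of the 386 genes with a higher excess (76.9%) and 203 of the 242 with a lower one (83.9%) lay nearer at day 5 to their day 1 level than to their day 3 level, beside 63.0% of all genes tested. Within replicate 2 the shares were 49.2% and 28.1%, beside 21.9%. These shares are descriptions, since the day 3 and day 5 levels also chose the genes.

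Markers of fibroblasts, osteoblasts, neutrophils, mast cells and lymphocytes were low, and some dendritic cell markers were not. The defining markers of fibroblasts and osteoblasts, Col1a1 and Dcn, were at 0 in all day 5 libraries, and the list summed to 100.3 and 103 normalized counts in replicate 1 and 31.1 and 45.0 in replicate 2, nearly all from Runx2. Neutrophil markers summed to 3.7 to 21.1 and mast cell and lymphocyte markers to 4.7 to 11.01. Dendritic cell markers summed to 3851 and 4859 in replicate 1 and 4174 and 4175 in replicate 2, mostly from Cd74 and Itgax, with Flt3 at 1.18 at most. The dendritic markers did not move together: of 3 tested, 2 were higher in replicate 2 at day 5 and 1 lower. Of all genes, 11.1% were higher and 62.0% lower. Itgax, the integrin CD11c, held 739 and 633 in replicate 1 and 1615 and 1944 in replicate 2 at day 5, and its part in the results was not tested.

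Transcript length and promoter letters were read over the called genes as descriptions. Over 5 equal bins of the protein-coding genes by transcript length, the median excess fell from 0.52 in the shortest to 0.01 in the longest, and the day 5 difference from -0.57 to -1.49. After removal of a trend on length and GC content, 312 of the 386 higher and 230 of the 242 lower genes were called, in a total of 584 and 718. The AP-1 letters stood in 10.7% of 328 promoters of genes with a higher excess and in 7.07% of 184 promoters of those with a lower one, beside 4.26% of 11603 promoters of the genes tested. For the NFAT letters the shares were 51.2%, 57.6% and 54.4%, for PU.1 10.4%, 14.1% and 10.9% and for the M-box 6.10%, 5.98% and 8.46%.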

How the data were processed

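RNA of RAW264.7 cells was sequenced in 12 libraries. The submitters' processing notes name TopHat2, SAMtools, DESeq2 and build mm9, with no further step named. In the authors' deposited table each value is a log2 of a normalized count plus 8, as its lowest value, 3, shows. Each library sums to 12709483 normalized counts, so the scaling is by total, and stepping the values back gave whole reads (8071160 to 16781080 per library) for 100% of values within 0.02 reads. Of 24757 rows 993 repeats were dropped, and 350 of 23764 identifiers have no name.

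Groups came from the labels. In limma 3.58.1 (R 4.3.3, trended eBayes) 8 libraries of days 3 and 5 were fitted with 1 mean per arm and day and 1 replicate term per day, which pairs replicates by arm. Tests covered the 13735 genes whose normalized counts averaged 10 or more, with Benjamini-Hochberg adjustment and a threshold of 0.05. The code was tested on simulated data. Alternatives were no replicate block, all 12 libraries, pseudocounts of 1 and 32, other filters, quantile, nuclear protein-coding and median scaling, limma voom on the recovered reads, each library left out and, chosen after seeing the data, removal of a length and GC trend.

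Members and lists were chosen with earlier results of these data known. Named genes are the 12 largest excesses in each direction and 8 day 5 differences in each direction (adjusted p under 0.05, both arms alike, a mean of at least 50 in the highest cell), up to 4 members of each described list by smallest p, and 16 osteoclast, macrophage and composition genes; other genes named were chosen after their values were seen. Some genes that this rule selects are not reported here.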

Additional observations from a re-analysis of the deposited data

Results flagged for a closer look

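The replicate difference differed between day 5 and day 3, by the limma test of the difference itself, in 628 of 13735 genes, and in 63 of the genes selected by the naming rule. Of these 63, 28 were called with each library left out in turn. Each value is the day 5 excess in log2 units, replicate 2 minus replicate 1 at day 5 less the same at day 3, beside a median of 0.29 over all genes.

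The excess was higher in 35 of these: Ctsk 5.65, Acp5 5.04, Ocstamp 4.87, Slc9b2 3.91, Atp6v0d2 3.83, Coq8a 3.66, Pls1 3.42, Fam49a 3.18, Mmp9 3.16, Matk 3.09, Ccr3 2.99, Clec4a2 2.86, Dcstamp 2.06, Sirpa 1.28, Cd9 1.25, Nfatc1 2.29, Fosl2 2.25, Prdm1 2.74, Lgals3 1.56, Src 2.61, Rac2 1.75, Dock5 1.76, Atp6v1b2 1.67, Atp6v0c 1.63, Atp6v0e 1.46, Cd63 1.50, Psap 1.40, Cd68 1.19, Ndufa4 1.50, Sdha 1.43, Sdhc 1.50, Atp5c1 1.37, Hmox1 1.74, Steap3 1.75 and Ncoa4 1.49.

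It was lower in 28: Cmah -4.10, Trem3 -3.59, Atp9a -3.44, Aqp9 -3.39, Gm10800 -3.16, Ccnd2 -3.14, 1700006J14Rik -3.08, Gm10722 -3.04, Sema6d -2.89, 9130208D14Rik -2.86, Cd93 -2.75, Dst -2.66, Anln -1.50, Lnpep -1.38, Siglec1 -2.12, Cd86 -2.20, Cx3cr1 -1.62, Fcgr1 -2.08, Slpi -2.30, Ifit1 -2.54, Mx2 -1.79, Ifit3 -1.82, Xaf1 -1.75, Top2a -1.81, Prc1 -1.50, Mki67 -1.27, Cenpe -1.22 and Slc39a14 -1.51. The part of RNA composition in these differences was not tested.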

How the results depend on the processing

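The 5 counts of called genes were recomputed under each alternative. Without the replicate block the excess was called in 40 genes (19 higher, 21 lower), and the change from day 3 to day 5 in 650 in replicate 1 and 1677 in replicate 2. The excess was called in 295 genes with a pseudocount of 1, 1212 with 32, 1389 after quantile normalization, 1954 on nuclear protein-coding reads, 1692 after median centring and 1302 with the length and GC trend removed. The replicate 1 change was called in 2351, 2315, 2605 and 2501 genes under the last 4 of these, and the replicate 2 change in 4421 on nuclear protein-coding reads. With no filter on low values limma called 0 genes for the excess (2997 at an unadjusted p under 0.05), 148 for replicate 1 and 0 for replicate 2 (4829 unadjusted), with a prior of 4.06 degrees of freedom in place of 54.5; the calls of Ctsk, Acp5 and the other named genes are lost there. With 1 library left out, the count ranged from 6473 to 10361 at day 5, from 9174 to 10627 at day 3, from 141 to 2209 for the excess, from 318 to 1976 in replicate 1 and from 68 to 3751 in replicate 2.

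The day 5 difference changed sign for 1700006J14Rik (0.68 quantile, 0.65 length and GC), and, under quantile, nuclear, median and length and GC scaling, for Nfatc1 (1.02, 0.81, 0.87, 1.02) and Irf8 (0.24, 0.0374, 0.10, 0.17). For Itgb3 it ranged from -0.35, without either vehicle library of day 5, to 2.64. The cause was not tested. Low counts limit Calcr and Oscar, which were not tested.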
